A study of Mus musculus with 75 samples.

Results

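Serpina genes encode clade A serpins, plasma and tissue proteins that mostly inhibit serine proteases. The mouse liver expresses several of them at high levels. All rows of the count table whose symbol is Serpina followed by a digit were taken, which gave 29 of 55536 rows. Of these, 24 are protein-coding genes and 5 are annotated pseudogenes (Serpina3h, Serpina3l-ps, Serpina3e-ps, Serpina3d-ps and Serpina4-ps1), which are counted apart from the coding genes. Angiotensinogen (Agt) is also a clade A serpin by descent but does not carry the symbol and is not a member here. On the mouse assembly GRCm38, 28 of the 29 rows lie in one cluster at chr12:103614786-104414329, about 800 kb long, and Serpina7 lies on chromosome X at 139079257 to 139085236.

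A serpin inhibits by bait. Its exposed reactive-centre loop is cut by the target protease, the serpin then changes shape, and the protease stays trapped in a covalent complex. The bases of the gene that encode the loop therefore set which proteases are bound. In hepatocytes these genes are known for the α1-antitrypsin paralogs (Serpina1a to Serpina1e), some of which inhibit neutrophil elastase while Serpina1e has no known target protease, and for the Serpina3 group, which corresponds to human α1-antichymotrypsin. Other members carry hormones and inhibit nothing: Serpina6 is corticosteroid-binding globulin and Serpina7 is thyroxine-binding globulin.

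Liver RNA came from male wild-type C57Bl/6 mice. Their exposure was maternal: through weaning the dams drank either vehicle or water with 3.07 µM tributyltin (TBT, an organotin), a daily 0.5 mg for each kg of body weight. The groups were 3-week vehicle (7 samples) and TBT (8), 5-month vehicle (8), TBT at low risk (16) and TBT at high risk (10), and 10-month vehicle (6), low-risk TBT (5), uninvolved liver of high-risk TBT mice (5) and liver tumor of TBT mice (7). Risk refers to liver tumors, and the labels do not say how it was assigned at 5 months, so whether those labels rest on expression is not known. One 10-month library, a tumor of a vehicle mouse by its label, was kept out of the main fits. The labels do not name separate litters, so p-values measure the spread between these samples.

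Library totals ran from 2.83 to 45.4 M counts. In every group the summed level of 8 hepatocyte markers (Alb, Apoa1, Ttr and others) was at least 60100 CPM (counts per M counts of the library), so the labelled tissue carries its defining markers. Of 75 libraries, 6 stood apart in total counts, genes detected or mitochondrial share, and 5-month vehicle 9 had the lowest total, 2.83 M. Leaving them out kept all 9 calls between the 5-month risk groups and added the low-count Serpina9 (-1.35, adjusted p = 0.0254, edgeR). The library labelled 3-week TBT 4 went against the labelled sex by its Xist level, 348 CPM. Its Y-chromosome genes summed to 7.08 CPM, against at least 93.9 CPM in every other sample. The 3-week comparison had 0 calls with and without this library. Xist was next highest in 5-month low-risk 24, at 84.6 CPM, and at most 8.39 CPM in all others. Low-risk 24 had 237 CPM over the Y-chromosome genes and the highest low-risk levels of Serpina12 and Serpina3k. It was kept, and its effect was not tested.

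Levels differed between members by several orders of magnitude, compared here as CPM per kb of exon so that gene length does not enter. Serpina3k was the highest member in every group, with group medians from 2516 CPM per kb in 3-week TBT livers to 5879 in 5-month vehicles. In 5-month vehicles it ranked 6 among all coding genes by this measure, and Serpina1e ranked 8 with a median of 4634 CPM per kb. At 3 weeks Serpina1b and Serpina1d stood above Serpina1e, whose median was 848 CPM per kb in vehicles and 735 in TBT livers. Serpina3n, Serpina3m, Serpina6 and Serpina10 formed a middle range. In 5-month vehicles their medians were 468, 207, 64.8 and 106 CPM per kb. Serpina12, Serpina7 and Serpina11 followed at 26.02, 31.5 and 26.3 CPM per kb in the same group.

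At the low end, Serpina16, Serpina1f, Serpina3a, Serpina3b and Serpina3j never passed the filter on low counts, and their highest group median was 0.243 CPM (Serpina3b, 5-month vehicles). Serpina16 and Serpina1f are known from the reproductive tract. Serpina9, known from germinal-centre B cells, Serpina5, the protein C inhibitor, Serpina3c and Serpina3i had group medians of at most 1.06 CPM. In all, 19 coding members and 2 pseudogenes, Serpina4-ps1 and Serpina3e-ps, were tested in at least 1 comparison, and the pseudogenes Serpina3h, Serpina3d-ps and Serpina3l-ps in none.

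**Figure D1:**
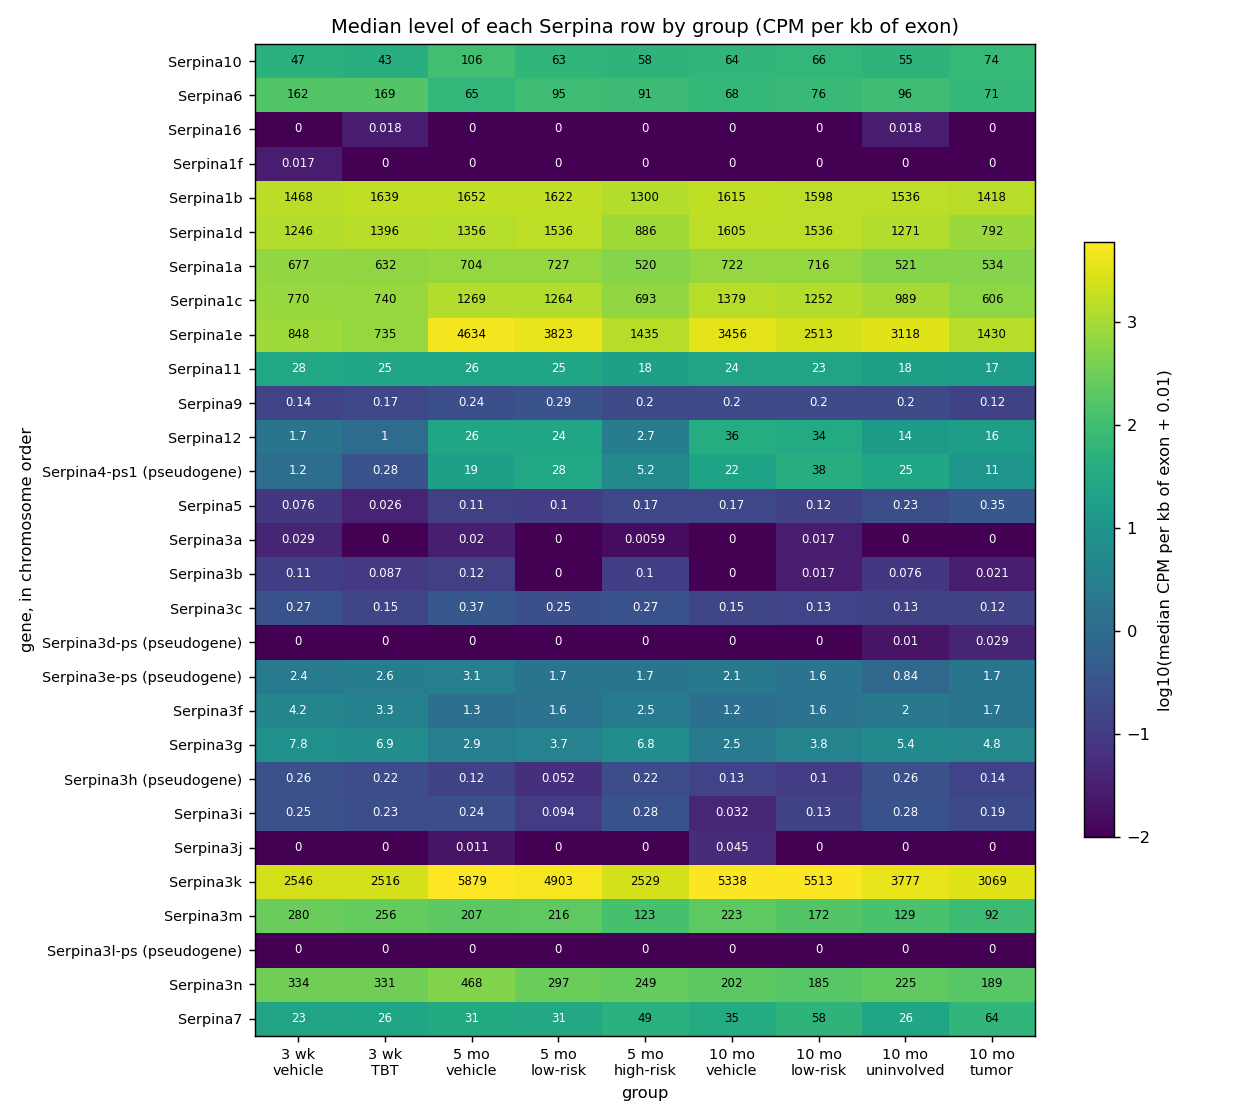
Median level of each of the 29 rows in each of the 9 groups, in CPM per kb of exon; columns are groups, rows are genes in chromosome order with Serpina7 last, and the colour is log10 of the median plus 0.01. Serpina3k and Serpina1a to Serpina1e carry the high levels in every group, and Serpina12, Serpina1e and Serpina4-ps1 are lower at 3 weeks and in 5-month high-risk livers than in 5-month vehicles.

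The 5 α1-antitrypsin paralogs are nearly the same gene, and they are shown first because the readings below compare them. Their coding sequences were 96.3% to 98.5% identical in pairs. Over 1239 aligned coding bases, 86 positions differed between at least one pair. Of these, 18 fell in a window of 75 bases in the last exon that starts at the conserved hinge of the reactive-centre loop, and the other 68 lay outside it, where 5.84% of positions varied. The windows below, from GENCODE M21 transcripts on GRCm38, are written on the minus strand, 5′ to 3′, with the varying bases in capitals.
Serpina1a, chr12:103853756-103853830: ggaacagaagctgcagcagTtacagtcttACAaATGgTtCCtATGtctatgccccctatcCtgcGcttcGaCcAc
Serpina1b, chr12:103728323-103728397: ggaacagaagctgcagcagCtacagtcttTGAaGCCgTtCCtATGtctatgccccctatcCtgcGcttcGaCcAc
Serpina1c, chr12:103895093-103895167: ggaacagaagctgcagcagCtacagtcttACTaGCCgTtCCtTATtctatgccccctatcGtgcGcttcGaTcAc
Serpina1d, chr12:103763761-103763835: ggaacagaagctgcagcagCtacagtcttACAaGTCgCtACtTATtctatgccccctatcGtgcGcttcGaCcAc
Serpina1e, chr12:103947099-103947173: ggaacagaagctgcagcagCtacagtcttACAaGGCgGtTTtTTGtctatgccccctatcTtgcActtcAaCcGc

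The loops of the 3 abundant Serpina3 genes, taken in the same way on the plus strand, differ at 36 of 75 positions, again in capitals. Their coding sequences were 92.6% identical for Serpina3k and Serpina3m, 83.8% for Serpina3k and Serpina3n, and 85.2% for Serpina3m and Serpina3n.
Serpina3k, chr12:104345269-104345343: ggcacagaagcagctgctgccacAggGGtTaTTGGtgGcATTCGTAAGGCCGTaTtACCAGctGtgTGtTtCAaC
Serpina3m, chr12:104393769-104393843: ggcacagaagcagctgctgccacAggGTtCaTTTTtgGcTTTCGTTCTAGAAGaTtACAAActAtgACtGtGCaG
Serpina3n, chr12:104413448-104413522: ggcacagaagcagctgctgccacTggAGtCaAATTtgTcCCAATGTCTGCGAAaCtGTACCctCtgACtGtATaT

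Such likeness bears on the counts, because a read that falls in a stretch shared by paralogs cannot be placed. The share of all 100-base stretches of a member's exons that also occur in another member was 58.5% for Serpina1c, 40.8% for Serpina1a, 26.3% for Serpina1d, 14.4% for Serpina1e and 13.8% for Serpina1b. It was 4.85% for Serpina3k, 6.09% for Serpina3m, 0.204% for Serpina3n and 0 for Serpina12. Shorter stretches were shared more often. With 50 bases the share was 73.3% for Serpina1c, 51.4% for Serpina1a, 34.6% for Serpina1e and 28.2% for Serpina1b. It was then 19.1% for Serpina3m and 6.9% for Serpina3n, and still 0 for Serpina12. Serpina3g and Serpina3i shared 3.49% and 2.25% at 100 bases, and 15.5% and 15.9% at 50 bases. How the authors treated reads that map to several places is not given in the sources used here, so values of single Serpina1 paralogs are uncertain, those of Serpina1c and Serpina1a most. Serpina11 shares 40.8% of its exon bases with the overlapping gene model Gm28577 on the same strand, and Serpina1c overlaps the antisense gene B430119L08Rik.

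The 5 promoters were also near copies, 92.1% to 98.0% identical over the aligned bases of each pair, and are shown because the paralogs nevertheless differed in level and in change. RefSeq windows of GRCm38.p6 matched 19 of the 29 members; Serpina10, Serpina6, Serpina9, Serpina3k and Serpina3m and the 5 pseudogenes were not matched. Each line gives the 150 bases before the annotated start on the minus strand, and capitals mark GTTAAT, the core of the site bound by the hepatocyte factor HNF1.
Serpina1a, chr12:103863620-103863769: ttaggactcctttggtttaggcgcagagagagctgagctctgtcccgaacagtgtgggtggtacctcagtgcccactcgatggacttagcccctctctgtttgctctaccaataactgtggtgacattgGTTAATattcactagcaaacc
Serpina1b, chr12:103738190-103738339: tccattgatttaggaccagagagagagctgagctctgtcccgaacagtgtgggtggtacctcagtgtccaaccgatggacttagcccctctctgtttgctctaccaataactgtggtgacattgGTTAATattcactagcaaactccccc
Serpina1c, chr12:103904951-103905100: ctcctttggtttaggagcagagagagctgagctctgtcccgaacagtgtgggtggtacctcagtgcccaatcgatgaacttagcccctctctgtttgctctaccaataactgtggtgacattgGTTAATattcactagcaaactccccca
Serpina1d, chr12:103773634-103773783: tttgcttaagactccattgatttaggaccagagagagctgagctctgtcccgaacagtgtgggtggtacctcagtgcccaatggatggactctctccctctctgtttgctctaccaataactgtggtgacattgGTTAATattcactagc
Serpina1e, chr12:103956898-103957047: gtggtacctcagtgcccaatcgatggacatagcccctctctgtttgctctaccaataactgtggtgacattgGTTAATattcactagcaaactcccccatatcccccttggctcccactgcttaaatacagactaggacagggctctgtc

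On either strand within 250 bases before the start, GTTAAT stood in 8 of 22 member windows and in 6.43% of 32851 windows of all genes. The 8 windows belonged to 7 of 19 members, namely all 5 Serpina1 paralogs, Serpina3c and Serpina7. The Serpina1 promoters are near copies, so their 5 matches are not independent. GTTAAT began 16 to 27 bases before the annotated start in Serpina1a to Serpina1d and 78 bases before it in Serpina1e. The bases next to the site are the same in all 5 printed windows, so this distance depends on where each start is annotated. TTGCNNAA, a C/EBP core, stood in 11 of 22 member windows and in 9.56% of all windows. The members were 9 of 19, Serpina12, Serpina1b, Serpina1d and Serpina1e among them. The STAT motif TTCNNNGAA stood in 7 of 22 member windows, of 5 of 19 members (Serpina11, Serpina1f, Serpina3f, Serpina3g and Serpina3i), and in 7.02% of all windows. CAAAGTCCA, an HNF4 site, stood in 0 of 22 member windows and in 0.384% of all windows. These matches describe letters and show no binding.

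The family's share of all counts was larger in adult than in weanling vehicles. The 29 rows together took 1.35% to 2.45% of the counts of 3-week vehicles (median 1.55%) and 1.32% to 3.84% of those of 5-month vehicles (median 3.11%). The 5-month vehicle at 1.32% was the only one of its group below the 3-week median. Serpina1a to Serpina1e made up a median of 0.869% of counts at 3 weeks and 1.70% at 5 months.

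The change from 3 weeks to 5 months was compared in vehicles of batch 1 (7 samples at each age). Of 18 coding members tested, 6 rose and 3 fell (edgeR quasi-likelihood, Benjamini-Hochberg adjustment, at 0.05), where 24.2% of all genes tested were called, 11.9% higher and 12.3% lower. With library totals in place of trimmed-mean (TMM) scaling the median of all genes moved from 0.02 to -0.15 on the log2 scale, all calls went from 1774 higher and 1842 lower to 845 and 2920, and 5 members were higher and 3 lower.

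Serpina12, vaspin, an inhibitor of tissue kallikrein 7 that is also made by fat, had the largest rise of the coding members. It lay between 2.49 and 11.1 CPM at 3 weeks (median 6.43) and between 13.6 and 158 CPM in all 8 vehicles of 5 months (median 96.0), so that the ages did not overlap. The rise was 3.83 ± 0.55 on the log2 scale (SE; adjusted p = 3.37e-05, edgeR). Serpina1e went from 889 to 2292 CPM (median 1372) to 4416 to 13490 CPM (median 7492), again without overlap, a rise of 2.64 ± 0.29 (adjusted p = 8.45e-07, edgeR).

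Among its near-identical neighbours, Serpina1c rose by 0.70 ± 0.20 (adjusted p = 0.0145, edgeR), while Serpina1a, Serpina1b and Serpina1d differed by 0.22 ± 0.17, 0.17 ± 0.18 and 0.11 ± 0.17 with no call. Serpina1e therefore took 11.3% to 19.7% of the counts of the 5 paralogs at 3 weeks (median 13.7%) and 32.0% to 61.3% in 5-month vehicles (median 45.6%). The median share of Serpina1b was 39.96% at 3 weeks and 24.7% at 5 months, while its own level was not called.

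**Figure D2:**
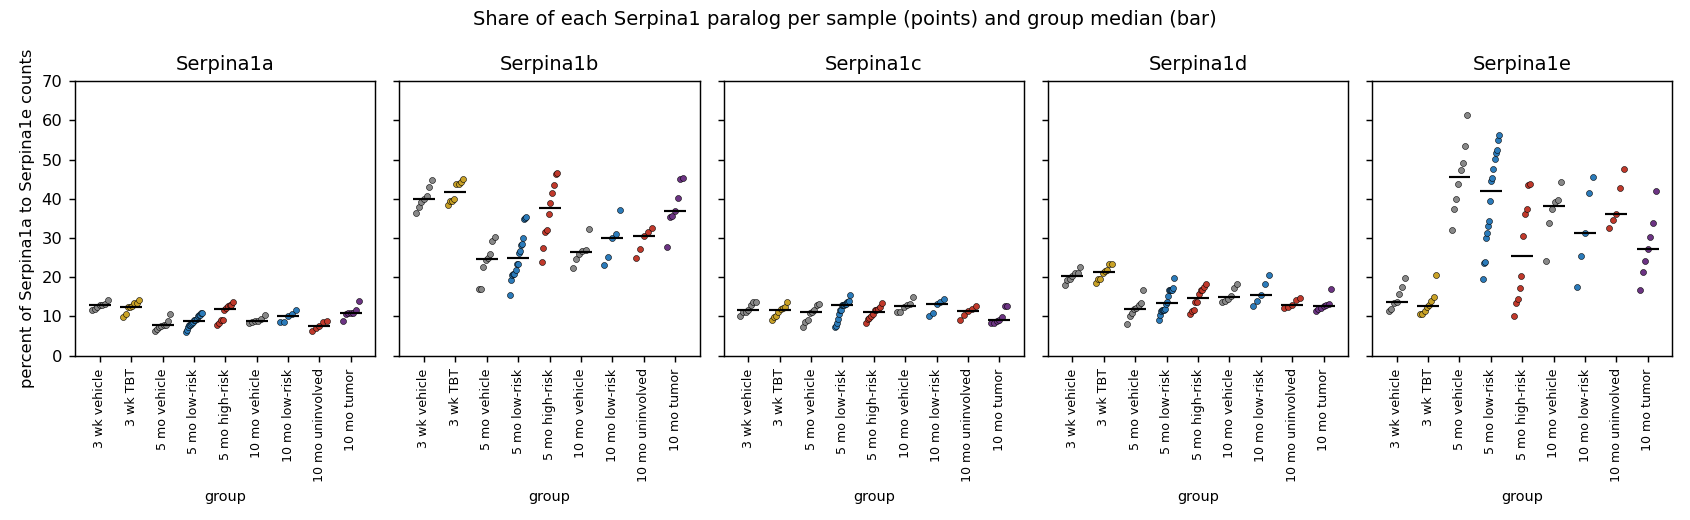
Share of each of Serpina1a to Serpina1e in the summed counts of the 5 paralogs, in percent; points are samples and bars are group medians. The Serpina1e share lies below 21% in every 3-week sample and spreads from 10.2% to 61.3% among the samples of 5 months.

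Serpina10, which inhibits coagulation factor Xa with protein Z, rose by 1.45 ± 0.27 (adjusted p = 0.000430, edgeR). Serpina3k rose by 1.03 ± 0.28 and Serpina3n, an inhibitor of granzyme B and cathepsin G, by 1.05 ± 0.34 (adjusted p = 0.01001 and 0.0259, edgeR). The Serpina3n call was lost without 5-month vehicle 3 (adjusted p = 0.0545), without the low-count filter (0.146) and with library totals (0.0541, all edgeR).

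Serpina6 fell by 1.17 on the log2 scale (SE 0.14, adjusted p = 1.94e-06, edgeR), from 152 to 314 CPM at 3 weeks to 83.7 to 215 CPM at 5 months, and 7 of 8 samples of 5 months lay below every 3-week sample. Serpina3f and Serpina3g, which stay inside the cell and are known from lymphocytes and macrophages, fell by 1.26 (SE 0.19) and 1.03 (SE 0.25), with adjusted p = 3.17e-05 and 0.00413 (edgeR). Over the same ages 6 of 8 macrophage, 5 of 8 stellate and 7 of 7 endothelial markers were lower, and 16 of 24 acute-phase genes were higher, Orm1 by 3.35 ± 0.48 (adjusted p = 2.59e-05, edgeR). The part of these in the Serpina changes was not tested. In whole tissue, fewer cells of a type and less RNA per cell cannot be told apart.

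The pseudogene Serpina4-ps1, whose human counterpart encodes kallistatin, rose by 4.53 ± 0.71 and Serpina3e-ps by 1.07 ± 0.30 (adjusted p = 0.000109 and 0.0124, edgeR). Serpina4-ps1 went from at most 4.23 CPM at 3 weeks to at least 7.50 CPM at 5 months. It is the next Serpina row after Serpina12 on chromosome 12, on the other strand.

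From 5 to 10 months fewer members moved. In vehicles 3 of 18 coding members fell and 0 rose, where 14.1% of all genes were called, 7.41% lower and 6.68% higher (edgeR; 999 higher and 1108 lower, against 1255 and 762 with library totals, which kept the 3). They were Serpina3n (fell by 1.66, SE 0.36), Serpina10 (fell by 0.94, SE 0.28) and the low-count Serpina3i (fell by 2.23, SE 0.67), with adjusted p = 0.00521, 0.0299 and 0.0318 (edgeR). Serpina3n ranged from 179 to 2529 CPM at 5 months and from 311 to 510 CPM at 10 months, so the younger group was the more spread. Of the acute-phase genes 15 of 24 were lower. Without 5-month vehicle 3 the Serpina10 call was lost (adjusted p = 0.0542, edgeR). Without the low-count filter the calls of Serpina10 and Serpina3i were lost (adjusted p = 0.0691 and 0.0621, edgeR), which left 1. Serpina12 and Serpina1e had no call, with differences of 0.33 ± 0.50 and -0.57 ± 0.29. Among the 2 pseudogenes tested, 1 was lower and 0 higher.

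Whether maternal TBT had changed the family at weaning was addressed at 3 weeks. Of 17 coding members tested, 0 were called and 0 had an unadjusted p under 0.05 (edgeR, with 0 calls by DESeq2 as well), and 0% of all genes were called. Serpina12 lay between 1.26 and 8.97 CPM in TBT livers (median 3.74) and differed from vehicle by -0.58 ± 0.45. Serpina1e lay between 795 and 1662 CPM (median 1188) and differed by -0.16 ± 0.24. The ranges overlapped for both genes.

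The 10 high-risk livers of 5 months differed from the 16 low-risk livers in many members, with batch as a term of the model. Of 18 coding members tested, 9 were lower in high-risk livers and 0 higher (edgeR, adjusted over all genes), where 38.9% of all genes were called, 18.5% lower and 20.3% higher. DESeq2 also called 9. The 9 were Serpina12, all 5 Serpina1 paralogs, Serpina3k, Serpina3m and Serpina11. The median log2 difference was -0.68 over the 18 members and -0.01 over all genes tested.

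The direction of the whole comparison depends on scaling. With library totals in place of TMM the median of all genes stood at 0.30 on the log2 scale, 6187 genes were higher and 999 lower, against 3005 and 2740 with TMM. With totals 8 of the 9 Serpina calls held, Serpina1b was at -0.22 (adjusted p = 0.141), and Serpina3g was called higher at 0.70 (adjusted p = 0.00646, edgeR), against 0.37 with TMM (adjusted p = 0.167).

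Serpina12 separated the groups. It ranged from 49.2 to 234 CPM in low-risk livers (median 90.4) and from 2.51 to 23.7 CPM in high-risk livers (median 9.94), and every high-risk sample lay below every low-risk sample. The log2 difference was -3.62 ± 0.42 (SE; adjusted p = 1.45e-07, edgeR). High-risk livers of 5 months thus lay in a range that overlapped that of 3-week vehicles, 2.49 to 11.1 CPM, a pair of groups that no test compared.

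Serpina1e ranged from 2157 to 11920 CPM in low-risk livers (median 6182) and from 692 to 5128 CPM in high-risk livers (median 2321). All 10 high-risk samples lay below the low-risk median and 5 lay below every low-risk sample. The difference was -1.49 ± 0.33 (adjusted p = 0.000594, edgeR). Serpina1c ranged from 1347 to 2422 CPM in low-risk and from 770 to 1370 CPM in high-risk livers, where 9 of 10 lay below every low-risk sample, and differed by -1.12 ± 0.15 (adjusted p = 4.53e-07, edgeR).

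The other α1-antitrypsin paralogs differed less. Serpina1d was at -0.96 ± 0.13, Serpina1a at -0.70 ± 0.12 and Serpina1b at -0.51 ± 0.14, with adjusted p = 9.75e-07, 3.14e-05 and 0.00337 (edgeR). As at weaning, Serpina1e then made a smaller part of the 5 paralogs: 10.2% to 43.8% in high-risk livers (median 25.4%) and 19.5% to 56.2% in low-risk livers (median 41.9%), with wide overlap. The 5 together took 0.602% to 1.42% of all counts in high-risk livers and 1.03% to 2.12% in low-risk livers.

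In the Serpina3 group, Serpina3k ranged from 4396 to 15620 CPM in low-risk livers (median 10090) and from 2792 to 8396 CPM in high-risk livers (median 5201). All 10 high-risk samples lay below the low-risk median, and the difference was -1.17 ± 0.23 (adjusted p = 0.000108, edgeR). Serpina3m went from 255 to 851 CPM in low-risk to 119 to 332 CPM in high-risk livers, -1.22 ± 0.24 (adjusted p = 0.000128, edgeR). Serpina3n was at -0.63 ± 0.37 with no call (adjusted p = 0.186, edgeR), and its ranges, 273 to 2563 and 311 to 1211 CPM, overlapped. Serpina3g, Serpina3f and Serpina3i were at 0.37, 0.17 and 0.80 with no call. In CPM, all 10 high-risk samples lay above the low-risk median for Serpina3g and for the low-count Serpina3i, and 9 of 10 for Serpina3f.

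Serpina11 was at -0.95 ± 0.18 (adjusted p = 6.89e-05, edgeR), and 5 of 10 high-risk samples lay below every low-risk sample. The hormone carriers Serpina6 and Serpina7 were at -0.28 ± 0.20 and 0.25 ± 0.31 with no call, and so was Serpina10 at -0.59 ± 0.28 (adjusted p = 0.0896, edgeR). Of the pseudogenes, Serpina4-ps1 was lower by 2.50 on the log2 scale (value -2.50 ± 0.62, adjusted p = 0.00182, edgeR) and Serpina3e-ps was at -0.88 ± 0.40 with no call.

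**Figure D3:**
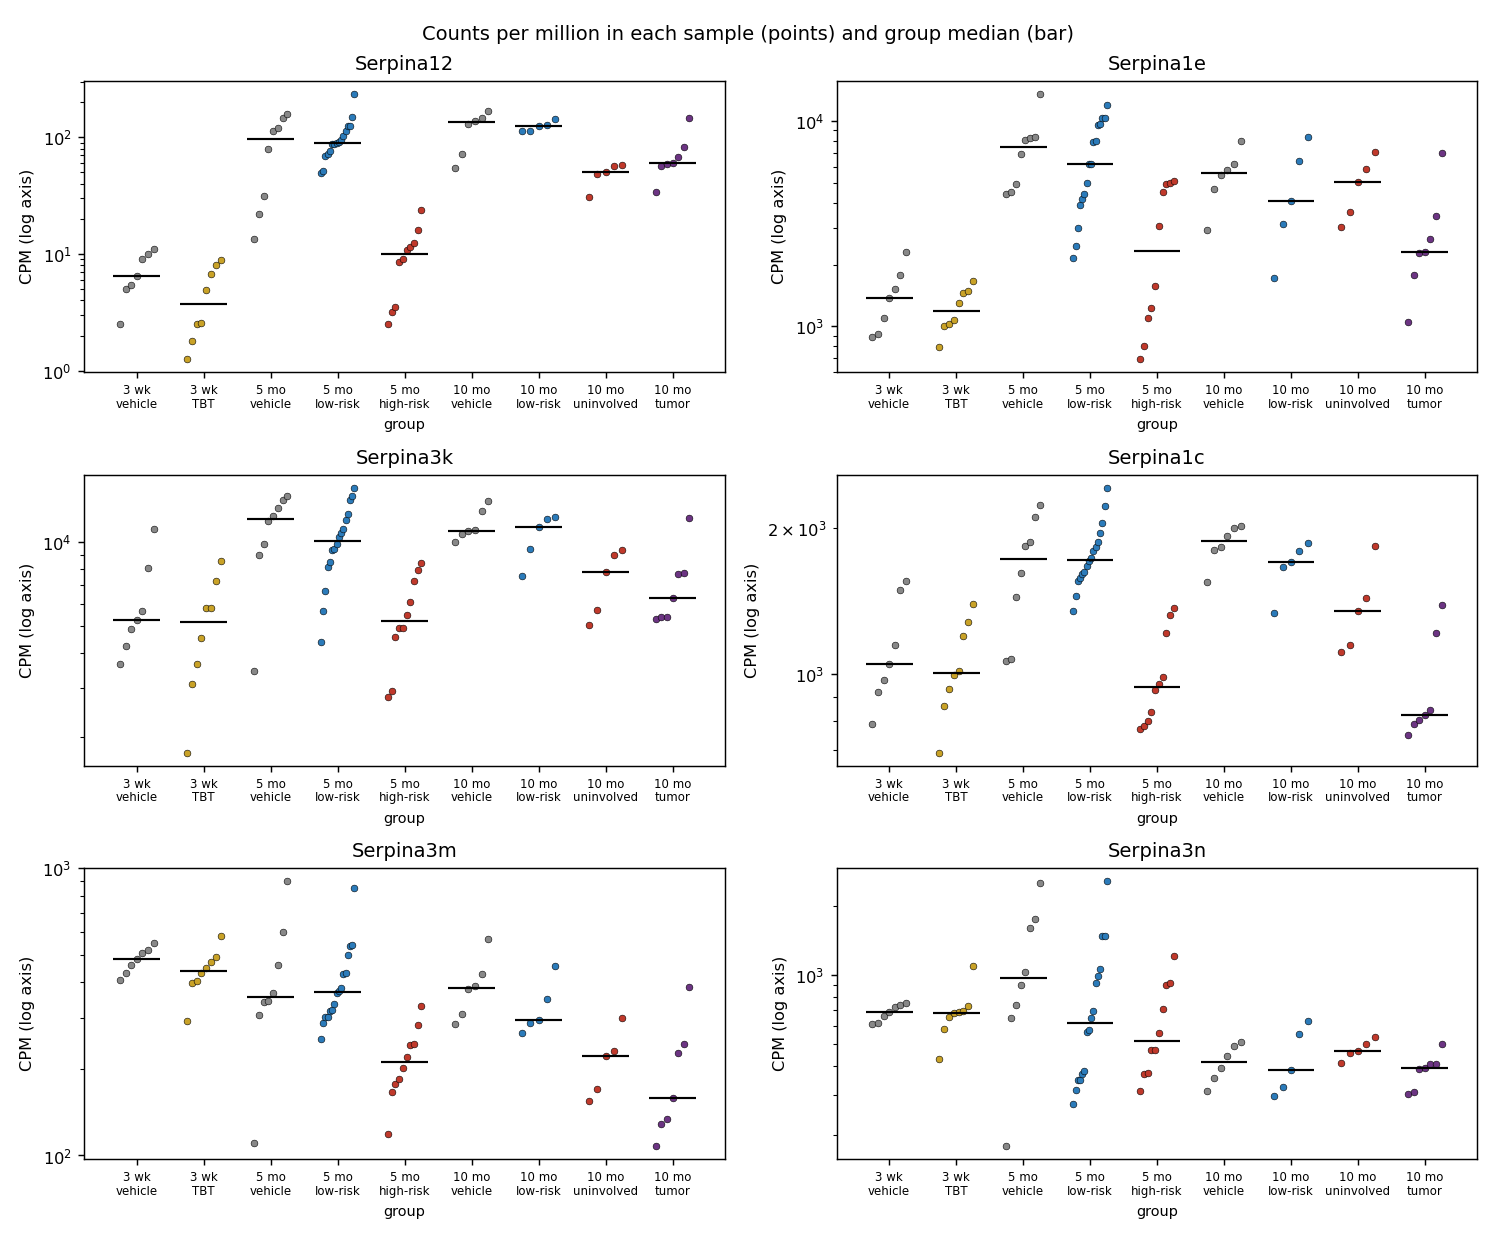
Levels in CPM of 6 members in each sample on log axes; points are samples, bars are group medians, and columns are the 9 groups. For Serpina12 the 10 high-risk samples of 5 months (2.51 to 23.7 CPM) all lie below the 16 low-risk samples (49.2 to 234 CPM).

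Both batches held both risk groups. Within batch 2 (7 high-risk and 10 low-risk) all 9 calls held. Within batch 1 (3 and 6) 2 held, Serpina12 and Serpina1d, and the other 7 kept their direction, with log2 differences from -0.57 (Serpina1b) to -1.19 (Serpina3k).

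Against the 8 vehicles of 5 months, high-risk livers were lower in the same 9 members and higher in 0 (edgeR quasi-likelihood), where 15.8% of all genes were called, 7.38% lower and 8.47% higher. This comparison shares its high-risk samples with the previous one. Serpina12 was at -3.31 ± 0.47, Serpina3m at -1.43 ± 0.31, Serpina1e at -1.39 ± 0.41 and Serpina3k at -1.29 ± 0.29, with adjusted p = 9.57e-05, 0.00197, 0.0192 and 0.0026 (edgeR). With library totals the median of all genes stood at 0.36 on the log2 scale and all calls went from 1251 higher and 1090 lower to 4627 and 320. The calls of Serpina1a and Serpina1b were lost (adjusted p = 0.138 and 0.274), and Serpina3g and Serpina3f were called higher at 0.79 and 0.74. Without the low-count filter Serpina1e and Serpina1b lost their calls (adjusted p = 0.0866 and 0.0819, edgeR). Of the markers, 6 of 8 stellate and 3 of 6 cholangiocyte genes were higher and 4 of 8 hepatocyte genes lower, and their part was not tested. Within batch 1 (3 high-risk livers) the count was 0, with Serpina12 at -3.08 (adjusted p = 0.106, edgeR), and batch 2 holds 1 vehicle.

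Low-risk livers and vehicles of 5 months gave 0 calls among 18 coding members and 0% of all genes. Of the members 0 had an unadjusted p under 0.05, and DESeq2 also called 0. Serpina12 differed by 0.31 ± 0.42 and Serpina1e by 0.10 ± 0.38 (log2, edgeR).

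Other genes of the same pathways are given for high-risk against low-risk livers of 5 months, with all lists chosen when results of these data were known. Their counts stand beside 18.5% of all genes lower and 20.3% higher in this comparison. Of 11 target proteases tested, 8 were lower and 1 higher: Klkb1, plasma prekallikrein, at -0.99 ± 0.14, Proc, protein C, at -0.88 ± 0.14 and Plau, urokinase, at 1.33 ± 0.23. Of 15 serpins of other clades, and Agt among them, 7 were lower and 6 higher: Serpinc1, antithrombin, at -0.58 ± 0.11, and Serpinb6b, an intracellular serpin, at 1.47 ± 0.22. The largest adjusted p among the genes named so far was that of Serpinc1, at 7.09e-05 (edgeR). Of 18 secretory chaperones, which fold serpins and other secreted proteins, 14 were lower and 1 higher: Calr, calreticulin, at -0.85 ± 0.16 and Derl2 at -0.76 ± 0.11.

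The same shares of all genes, 18.5% lower and 20.3% higher, stand beside the next lists. Of 12 hepatocyte transcription factors, 7 were lower and 0 higher: Cebpa at -0.95 ± 0.19 and Nr5a2, the LRH1 receptor, at -0.61 ± 0.09. Of 24 acute-phase genes, 7 were lower and 0 higher, among them Crp at -1.03 ± 0.16. In the growth hormone axis 3 of 10 were lower, with its receptor Ghr at -1.10 ± 0.13. Of 8 genes of hormone transport and response, 6 were lower, Hsd11b1, which regenerates glucocorticoid, at -1.43 ± 0.20. Among these named genes the largest adjusted p was that of Cebpa, at 0.000122 (edgeR, over all genes tested).

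Markers of other cell types also moved with risk. Of 8 stellate-cell markers, 6 were higher and 1 lower, and their summed level had a median of 480 CPM in low-risk and 1250 CPM in high-risk livers, with 600 to 1840 CPM in the latter. Of 6 cholangiocyte markers tested 5 were higher, with sums of 25.1 to 228 and 32.8 to 446 CPM. Of 6 T- and NK-cell markers 4 were higher, with sums of 1.51 to 7.58 and 4.96 to 13.2 CPM. The hepatocyte markers summed to 70500 to 162000 CPM in low-risk and 78200 to 166000 CPM in high-risk livers, where 4 of 8 were lower and 1 higher. Of 7 endothelial markers 4 were lower and 1 higher, and of 8 macrophage markers 2 were lower and 2 higher. The part of these in the Serpina differences was not tested.

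**Figure D4:**
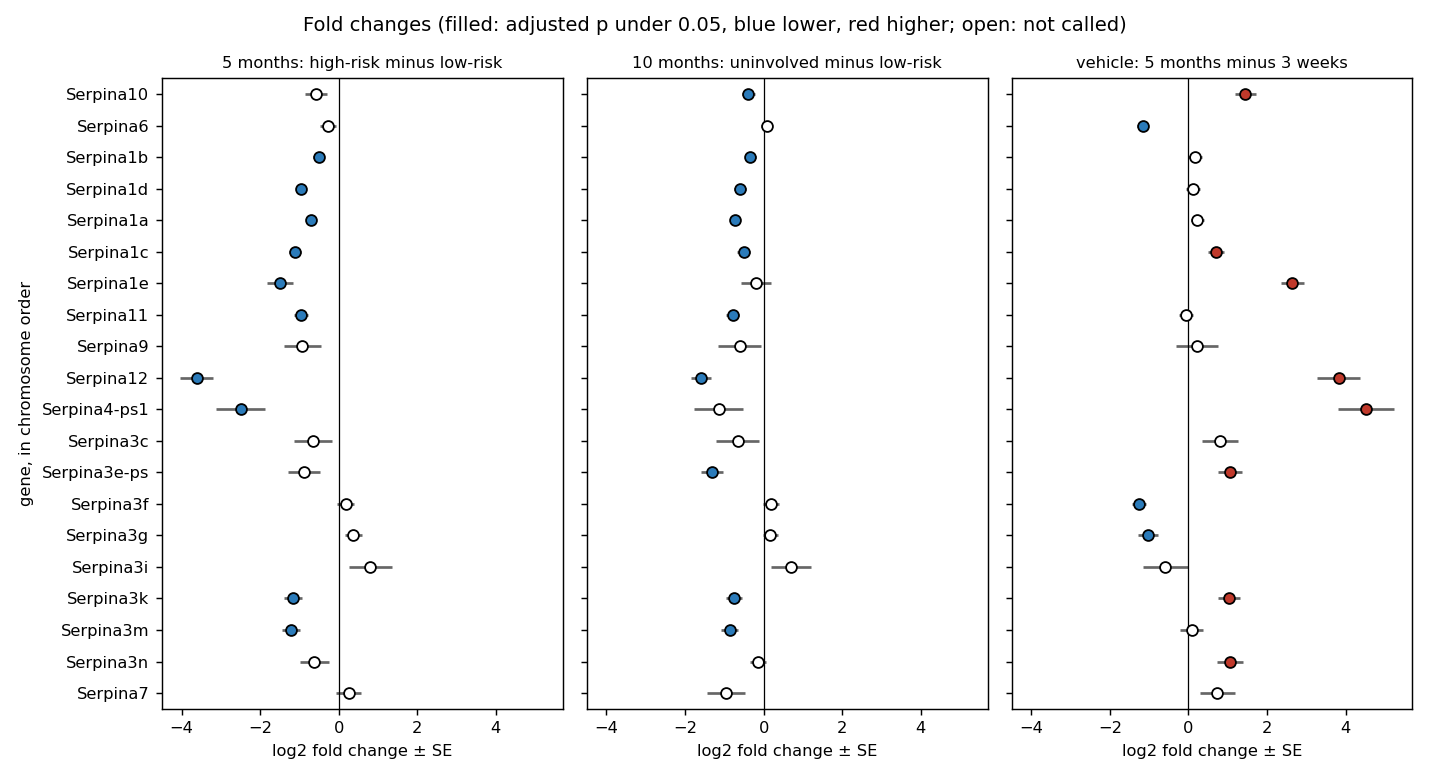
Log2 fold changes with SE of the 18 coding members and 2 pseudogenes tested in all 3 comparisons, in chromosome order; filled points passed an adjusted p of 0.05 (blue lower, red higher) and open points did not. Serpina12 lies at -3.62 in high-risk against low-risk livers of 5 months, at -1.59 in uninvolved against low-risk livers of 10 months and at 3.83 in vehicles of 5 months against 3 weeks.

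At 10 months, uninvolved liver of high-risk mice (5) was compared with low-risk liver (5). The libraries of the groups differed in kind. Uninvolved libraries had 34.8 to 44.6 M counts, 24676 to 28715 genes detected and 4.2% to 5.85% mitochondrial counts. Low-risk libraries had 26.4 to 33.5 M, 21663 to 22578 genes and 2.94% to 3.08%. Vehicle libraries had 26.2 to 31.0 M, 21078 to 22006 genes and 3.14% to 3.83%. The part of this in the differences was not tested. Of 19 coding members tested, 9 were lower and 0 higher (edgeR quasi-likelihood), where 52.4% of all genes were called, 24.7% lower and 27.7% higher. With library totals the median of all genes moved from 0.05 to 0.30 on the log2 scale, 6828 genes were higher and 1839 lower (4520 and 4041 with TMM), and 6 members were lower and 2 higher. The members lost with totals were Serpina10, Serpina1b and Serpina1c, and those gained were Serpina5 (1.27) and Serpina6 (0.31).

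Serpina12 was at 31.1, 48.5, 50.3, 56.4 and 57.5 CPM in the uninvolved samples and at 113.1, 114.1, 124.2, 126.6 and 144.3 CPM in the low-risk samples. The groups did not overlap, and the difference was -1.59 ± 0.25 (adjusted p = 7.46e-05, edgeR). Serpina1a was at 828.5, 852, 954, 957 and 1112 CPM in uninvolved and at 1135, 1303, 1312, 1317 and 1567 CPM in low-risk samples, also without overlap, a difference of -0.73 ± 0.13 (adjusted p = 0.000293, edgeR).

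Serpina3k was at 5057, 5699, 7768, 8985 and 9360 CPM in uninvolved and at 7523, 9450, 11340, 12050 and 12250 CPM in low-risk samples. Its groups overlapped, and the difference was -0.75 ± 0.20 (adjusted p = 0.00474, edgeR). Serpina3m was at -0.86 ± 0.22, Serpina11 at -0.79 ± 0.17, Serpina1d at -0.60 ± 0.15 and Serpina1c at -0.51 ± 0.16, with adjusted p = 0.00364, 0.00104, 0.00388 and 0.0138 (edgeR). Serpina10 (-0.39 ± 0.16, adjusted p = 0.0470) and Serpina1b (-0.34 ± 0.13, adjusted p = 0.0395, edgeR) were the weakest. The Serpina10 call was lost on leaving out uninvolved 1, 5 or 7 or low-risk 2, 8 or 9 (adjusted p from 0.0678 to 0.125) and without the low-count filter (0.0505), and that of Serpina1b on leaving out any uninvolved sample but 12 or any low-risk sample but 10 (0.0538 to 0.131, edgeR).

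Serpina1e was at 3054, 3623, 5041, 5863 and 7067 CPM in uninvolved and at 1712, 3139, 4063, 6371 and 8393 CPM in low-risk samples, with full overlap and a difference of -0.19 ± 0.37 (no call). The uninvolved median was the higher in CPM, which are scaled to library totals, whereas the fold change uses TMM. The pseudogene Serpina3e-ps was at most 1.44 CPM in uninvolved and at least 1.46 CPM in low-risk samples, a difference of -1.32 ± 0.28 (adjusted p = 0.000933, edgeR). In the same comparison 6 of 8 stellate markers were higher and 1 lower, and 6 of 6 cholangiocyte and 6 of 7 T- and NK-cell markers were higher. Of 8 hepatocyte markers 4 were lower and 1 higher, and of 8 macrophage markers 6 were lower and 1 higher. Of 7 endothelial markers 3 were lower and 2 higher, and of 18 secretory chaperones 14 were lower and 1 higher. Their part in the Serpina differences was not tested.

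Uninvolved liver was also compared with the 6 vehicles of 10 months, with the same uninvolved samples. Of 19 coding members 10 were lower and 3 higher (edgeR), where 57.7% of all genes were called, 26.5% lower and 31.2% higher. With totals 7 were lower and 4 higher, the median of all genes stood at 0.38 on the log2 scale, and all calls went from 5093 higher and 4334 lower to 8176 and 1728. Serpina12 was at -1.58 ± 0.24, Serpina3m at -1.18 ± 0.21, Serpina3k at -0.95 ± 0.19 and Serpina1a at -0.81 ± 0.13, with adjusted p = 4.02e-05, 0.000187, 0.000466 and 5.91e-05 (edgeR). The higher members were Serpina3i at 2.16 ± 0.55, Serpina3g at 0.62 ± 0.18 and Serpina3f at 0.46 ± 0.19 (adjusted p = 0.00314, 0.00813 and 0.0480, edgeR). Serpina3i had at most 0.251 CPM in vehicles and at most 0.830 CPM in uninvolved liver. Serpina3c, among the 10 lower members, had medians of 0.289 CPM in uninvolved liver and 0.326 CPM in vehicles, where vehicle 2 reached 1.549 CPM. The Serpina3f call was lost without the low-count filter (adjusted p = 0.0781, edgeR). Among the 2 pseudogenes tested, 1 was lower and 0 higher. In this comparison 7 of 7 T- and NK-cell, 6 of 6 cholangiocyte and 6 of 8 stellate markers were higher, while 5 of 8 macrophage and 5 of 8 hepatocyte markers were lower. In these lists 1 stellate marker was lower and 1 macrophage marker higher. Of 7 endothelial markers 3 were higher and 3 lower. Their part in the Serpina differences was not tested.

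Same-numbered uninvolved and vehicle samples are different animals, and correlated at 0.102 to 0.211 in 3 pairs. With the number as a block over these 3 pairs, 9 members remained called. Serpina3g (0.19), Serpina3f (0.10) and Serpina3c (-0.99) lost their calls (adjusted p = 0.481, 0.651 and 0.257, edgeR). Serpina3i had no value in the blocked fit. Because the numbers join different animals, neither the kept nor the lost calls of this block decide the result. Leaving out uninvolved 5 took the calls of Serpina10, Serpina3c and Serpina3f (adjusted p = 0.0618, 0.0770 and 0.0676, edgeR), and leaving out other single uninvolved samples took 1 or 2 of the same calls. Low-risk liver against vehicle gave 0 calls among 19 coding members and 0% of all genes (edgeR, 0 also by DESeq2), and 2 members, Serpina3g (0.45) and Serpina3i (1.45), had an unadjusted p under 0.05.

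Tumors (7) were compared with uninvolved liver (5). Tumor libraries had 22.5 to 27.9 M counts, 22609 to 23868 genes detected and 2.64% to 3.46% mitochondrial counts. All of these lay below every uninvolved library, and their part in the differences was not tested. Of 18 coding members, 0 were called by edgeR without pairing by mouse, where 18.1% of all genes were called, 7.55% higher and 10.5% lower. Serpina6 and Serpina1c had an unadjusted p under 0.05 (-0.45 ± 0.16 and -0.56 ± 0.22), and DESeq2 called 1, Serpina6. Serpina3e-ps was higher in tumors by 0.84 ± 0.27 (adjusted p = 0.0475, edgeR), at 1.11 to 2.71 CPM against 0.773 to 1.44 CPM. With the mouse as a block over 4 pairs, Serpina12 was called higher in tumors at 0.60 (adjusted p = 0.0480, edgeR), against 0.54 ± 0.27 unpaired (adjusted p = 0.165).

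Tumor 7 decided part of this. Serpina1e was at 7017 CPM there and at 1045 to 3442 CPM in the other 6 tumors, against 3054 to 7067 CPM in uninvolved liver. Over all 7 tumors the difference was -0.74 ± 0.41 (adjusted p = 0.220). Without tumor 7 Serpina1e was at -1.19, Serpina1c at -0.73 and Serpina3n at -0.42 (adjusted p = 0.0155, 0.0155 and 0.0380, edgeR), a choice made after the values were seen. Leaving out uninvolved 7 gave a call for Serpina6 (-0.55, adjusted p = 0.0414) and leaving out uninvolved 12 a call for Serpina10 (0.48, adjusted p = 0.0223, edgeR).

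Against 10-month vehicles, tumors were lower in 9 of 17 coding members (Serpina11, Serpina12, Serpina1a to Serpina1e, Serpina3k and Serpina3m) and higher in 1, Serpina3g, where 45.9% of all genes were called, 21% lower and 24.8% higher (edgeR). With totals 7 were lower and 3 higher, the median of all genes moved from -0.01 to 0.29 on the log2 scale, and all calls went from 3800 higher and 3216 lower to 7413 and 874. Serpina1c ranged from 749 to 1392 CPM in tumors and from 1547 to 2016 CPM in vehicles, without overlap, -1.25 ± 0.17 (adjusted p = 5.40e-05, edgeR). Serpina3g ranged from 8.05 to 18.4 CPM in tumors and from 4.84 to 7.34 CPM in vehicles, also without overlap, 0.82 ± 0.20 (adjusted p = 0.00334, edgeR). Serpina12 was at -1.01 ± 0.30 and Serpina1e at -1.16 ± 0.39 (adjusted p = 0.0141 and 0.0260, edgeR), and both calls were lost without the low-count filter (adjusted p = 0.0513 and 0.0783). The 2 pseudogenes tested, Serpina4-ps1 and Serpina3e-ps, were both called lower in tumors than in vehicles. Of the markers, 7 of 7 T- and NK-cell, 6 of 6 cholangiocyte and 5 of 8 stellate genes were higher in tumors, and 5 of 8 hepatocyte and 4 of 7 endothelial genes were lower. In these lists 1 stellate gene was lower and 2 endothelial genes were higher. Their part in the Serpina differences was not tested. Without tumor 7, 12 members were called, with Serpina3n (-0.48) and Serpina5 (1.14) added.

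An interaction term compared the risk difference of 10 months with that of 5 months, in 1 fit of the low-risk, high-risk and uninvolved livers. Among 18 coding members 0 were called, where 0.448% of all genes were called, 0.18% higher and 0.267% lower (edgeR; 29 and 43 genes, against 21 and 56 with library totals). The members Serpina12, Serpina1c, Serpina1e and Serpina7 had an unadjusted p under 0.05. Serpina12 was nearest to a call: its deficit was smaller at 10 months by 2.02 ± 0.49 on the log2 scale (adjusted p = 0.0513, edgeR). DESeq2 called it (2.08, adjusted p = 0.00332), as did edgeR with other scaling (adjusted p = 0.0489 with RLE factors and 0.0466 with library totals). Serpina1e, called at 5 months and not at 10, had an interaction of 1.29 ± 0.62 (adjusted p = 0.4, edgeR), so its risk difference was not shown to differ between the ages.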

How the data were processed

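RNA was measured in 75 liver libraries. Per the labels' protocols, DNase-treated RNA was made into stranded total RNA libraries. The authors deposited 1 table of whole-number gene counts. The submitters' processing notes name Trim Galore, HISAT2, featureCounts and mm10, and the file name states a ComBat-seq batch adjustment, whose group settings are not given in the sources used here. How the authors' counting treated strand and multi-mapping reads is not stated. Batch adjustment can shift counts in either direction before any test.

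Members and gene lists were chosen with earlier results of these data known. All 29 Serpina rows are accounted for by name. Values per sample are given for coding members with a mean of at least 5 CPM in a group and a call in some comparison, and each other list is represented by its counts and at most 3 of its members with the smallest p. CPM is a count scaled to the library total, while fold changes use TMM factors. Factors fitted over all samples had log2 medians of 0.213 in high-risk, -0.117 in low-risk and -0.157 in vehicle livers of 5 months. At 10 months they were 0.169 in uninvolved, 0.179 in tumor, -0.053 in low-risk and -0.136 in vehicle samples. Fold changes of high-risk, uninvolved and tumor samples against low-risk or vehicle samples therefore lie lower than CPM alone would give. Exon lengths and positions come from GENCODE M21 (GRCm38), which matched all 55536 identifiers.

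The 2 libraries of 3-week vehicle mouse 3 were summed. So were uninvolved libraries 3 and 6, which differed by a median of 0.044 on the log2 scale, against 0.141 to 0.35 for other pairs of the group, and were counted as 1 sample. This left 72 samples in comparisons. Tests used edgeR 4.0.16 in R 4.3.3: TMM, filterByExpr, robust quasi-likelihood fits and Benjamini-Hochberg adjustment over all genes tested, at 0.05. Vehicle, low-risk and high-risk (or uninvolved) livers of an age went into the same fit, at 5 months with a batch term. Each tumor comparison used its own 2 groups only. An SE is the log2 fold change divided by the root of its F value. The scripts were tested on simulated data.

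The alternatives were RLE factors, no low-count filter, DESeq2 1.42.0, single batches, no batch covariate, replicate blocks and leaving out samples. Library totals in place of TMM, and the fits without tumor 7 or 5-month vehicle 3, were added after seeing the data. Tumors and uninvolved livers of the same mouse number correlated at 0.251 to 0.626 in 4 pairs. They are paired by mouse in the blocked fits only, and the main tumor fit is unpaired.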

Additional observations from a re-analysis of the deposited data

Results flagged for a closer look

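Dixon's test was run on 112 groups of 4 to 10 samples, the 14 coding members given by sample in each group of that size, and 9 groups had a sample far from the others. Chance alone flags about 1 group in 20. In 3 of the 9 the sample was tumor 7, whose Serpina3k was 12220 CPM (the other tumors 5302 to 7708), Serpina1a 1464 CPM (872 to 1114) and Serpina1e 7017 CPM (1045 to 3442).

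The 5-month vehicle 9, the shallowest library, was low in Serpina1a at 634 CPM (the others 1235 to 1478) and in Serpina1b at 1579 CPM (3570 to 4698). The 5-month vehicle 3 was high in Serpina1e at 13490 CPM (4416 to 8367), and vehicle 8 of the same age was high in Serpina6 at 214.7 CPM (83.7 to 122). The 3-week TBT sample 6 was high in Serpina3n at 1092 CPM (430 to 731), and tumor 11 was high in Serpina10 at 344.6 CPM (214 to 266).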

How the results depend on the processing

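Between 62 called gene results and their alternatives there were 596 values. Of these, 508 kept direction and call, 87 kept direction without the call and 1 reversed, and 30 gene results held their call under every alternative that gave them a value. The reversal was Serpina1b in high-risk livers against vehicles of 5 months, at 0.0277 with title numbers as a replicate block over 3 pairs. That block left 0 members called there, but its numbers do not pair the animals (correlations from -0.266 to 0.238), and so do not bear on the size of the effect. Within batch 1 the count of members called was 2 for high-risk against low-risk and 0 for high-risk against vehicle. With the tumor of a vehicle mouse added to the vehicles it was 8 for uninvolved against vehicle (13 without it) and 6 for tumor against vehicle (10). For tumor against uninvolved it was 1 with DESeq2, 1 with uninvolved 3 and 6 separate, 1 with a mouse block over 4 pairs, 2 over 6 pairs, 2 with all 10-month groups in 1 fit, and 0 to 3 on leaving out single samples. For vehicles of 10 against 5 months it was 1 without the low-count filter. For the interaction it was 1, Serpina12, with RLE factors, library totals, DESeq2, uninvolved 3 and 6 separate, or without the libraries that stand apart. Other blocks kept counts within 1.5 times. Same-numbered samples of the 3-week groups correlated at -0.271 to 0.315, and 3 of 7 matched best with their own number. For vehicles the values were -0.327 to 0.162 between 5 months and 3 weeks (0 of 6) and -0.203 to 0.148 between 10 and 5 months (1 of 5). Low-risk livers and vehicles of 5 months gave -0.143 to 0.596 (3 of 5). With title numbers as a replicate block, Serpina7 was called in vehicles of 5 months against 3 weeks (0.85, adjusted p = 0.00439, edgeR). The main fit gave Serpina7 no call there. The numbers join different animals, so this block does not decide the result. For tumor against vehicle the block took the calls of Serpina3g, Serpina1b and Serpina1e. There, too, the numbers join different animals (correlations from -0.037 to 0.234). Scaling by totals moved the split of all calls in 8 comparisons, as given with each comparison. Depth limits Serpina3c, Serpina3i, Serpina5 and Serpina9, which had at most 74 counts in any sample.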

Other observations

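The 10-month vehicle library labelled as a tumor belongs to no main comparison. It held 3789 CPM of Serpina3k, 3128 CPM of Serpina1e, 1802 CPM of Serpina1c and 32.9 CPM of Serpina12, and 14.1% of its counts were mitochondrial. The other 10-month vehicles lay between 9976 and 14010 CPM for Serpina3k, between 2955 and 7959 CPM for Serpina1e, between 1547 and 2016 CPM for Serpina1c and between 55.0 and 167.7 CPM for Serpina12.

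Serpina7, the thyroxine carrier on chromosome X, varied widely within groups at 10 months. It lay between 25.7 and 212 CPM in tumors, between 30.0 and 160 CPM in uninvolved liver, between 91.1 and 190 CPM in low-risk liver and between 15.5 and 118.7 CPM in vehicles, and had no call in any main fit.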
